A study of Mus musculus with 9 samples.

Results

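Rn45s is the gene symbol for the mouse 45S ribosomal RNA precursor. The interval that stands for it in mouse build mm9, chr17:39979942-39985774, is 5833 bp long. It held 597 CpG sites of the 18722682 listed in the deposited tables, each of them listed in both genotypes. The interval was chosen by measured values of these same data, namely its excess read depth and its lower methylation level in the Tet1-null pool. The size and direction of that difference are therefore a description here and carry no test. Its name was taken with the interval and was not checked against a sequence. Whether the interval holds the whole precursor or only a part of it, and whether it includes a promoter, was therefore not established. It is called the unit below.

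Ribosomal RNA genes lie in tandem arrays on several chromosomes. RNA polymerase I transcribes each active copy into the 45S precursor, which is cut into the 18S, 5.8S and 28S RNAs of the ribosome. Some copies are kept silent, and silent copies are known to carry CpG methylation at their promoters. A reference genome that holds a single representative unit collects reads from many copies, so a level measured there is a mean over copies as well as over cells. Tet1 is a dioxygenase acting on 5-methylcytosine, and primordial germ cells, from which eggs and sperm descend, erase most of their DNA methylation in the embryo.

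The groups were wild-type (WT) C57BL/6 primordial germ cells, 4 libraries from 1575 to 5251 cells, and Tet1 -/- primordial germ cells of the same strain, 5 libraries from 1400 to 4700 cells, all of female embryos at embryonic day 13.5. Whole-genome bisulfite sequencing gave 1 table of pooled libraries per genotype, so nothing below has a replicate check. Kit and sequencing run were spread unevenly over the pools (Sigma kit for 2 WT and 2 Tet1-null libraries, Zymo for 2 and 3; run 1, 2 and 3 for 1, 1 and 2 WT and for 0, 2 and 3 Tet1-null libraries), and cannot be told apart from genotype. The tissue label could not be checked, since the tables hold no expression. Mean depth outside chrM was 2.21 reads over the 13730359 sites with WT reads and 2.85 over the 16372486 sites with Tet1-null reads. On chrM, which served as a measure of unconverted cytosines, 1.66% of WT reads and 1.29% of Tet1-null reads were methylated.

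The RefSeq gene table of another build, GRCm38, lists Rn18s-rs5, an 18S-related pseudogene, on chromosome 17 with Esp15 and AY036118 as its neighbours. Its place on the mm9 interval was not established, and positions along Rn45s are therefore given in bp from the first base of the interval and not by the precursor's segments.

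Rn45s was covered far more deeply than the rest of the genome. A site held 1 to 90 reads in the WT pool, with a median of 35, and between 2 and 156 in the Tet1-null pool, with a median of 70. The mean depth per site was 36.4 reads in the WT pool, 16.5 times the mean of the sites outside chrM with reads in that pool. It was 66.1 reads in the Tet1-null pool, or 23.2 times the mean taken in the same way. Relative to these means, the unit was 1.41 times as deep in the Tet1-null pool. The means leave out sites without reads, which were more numerous in the WT pool, so this ratio also reflects the unequal sets of sites. Shares of all reads outside chrM were taken from reads summed over CpG sites. The unit took 0.0717% of the WT pool (Wilson 95% interval 0.0707 to 0.0726%) and 0.0846% of the Tet1-null pool (0.0837 to 0.0854%). A read counts at each CpG it covers, so these shares rise with CpG density and are not shares of sequenced reads. Their intervals cover counting error only. The ratio of these shares, which does not depend on the number of sites with reads, was 1.18. Whether more ribosomal DNA copies or more reads per copy were present cannot be told apart in these tables. A greater depth in the Tet1-null pool was not particular to Rn45s. On chrM a site held 138.0 WT and 260.7 Tet1-null reads on average, and the other places of excess reads described below also stood deeper in the Tet1-null pool.

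Depth rose and fell along the unit at the same places in both pools. Across the 597 sites, WT and Tet1-null depth correlated at 0.899 (Pearson) and 0.891 (Spearman), with points that share reads, copies and base composition. Bins of 500 bp, counted from the first base with a last bin of 333 bp, ranged from 20.6 reads per site at 3501 to 4000 bp to 64.5 at 1 to 500 bp in the WT pool. In the Tet1-null pool they ranged from 41.6 at 4001 to 4500 bp to 106.3 at 4501 to 5000 bp. At 56 sites at least one pool held under 10 reads. Of these, 14 lay in the bin from 1501 bp, 13 in that from 3501 bp and 11 in that from 501 bp.

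**Figure D1:**
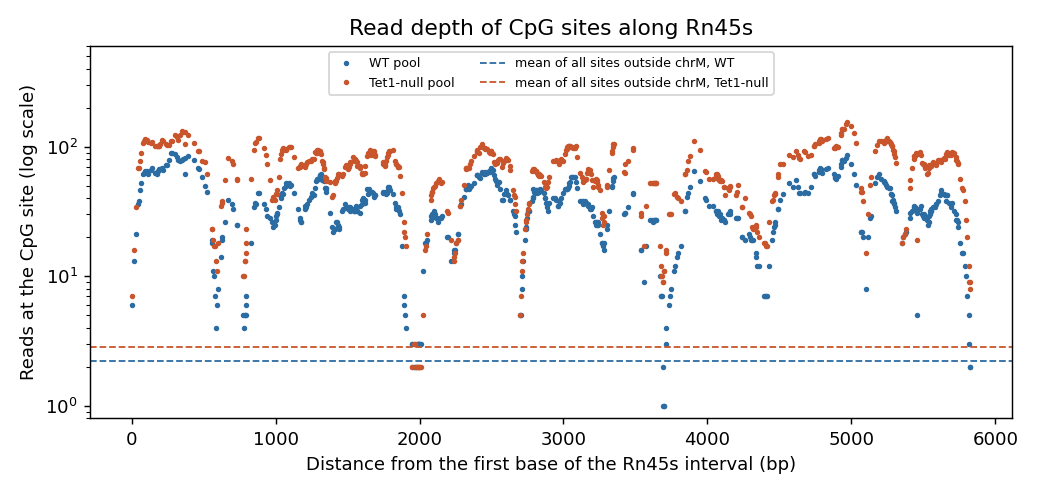
Reads at each of the 597 CpG sites (log axis) against the distance from the first base of Rn45s in bp, for the WT pool (blue) and the Tet1-null pool (orange). Dashed lines mark the mean depth of the sites outside chrM with reads in that pool, 2.21 and 2.85 reads. Nearly the whole unit lies above them, and the dips of both pools coincide.

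Depth fell off at both edges of the unit. The first site inside, 4 bp from the start, held 6 WT and 7 Tet1-null reads, and the third, at 29 bp, held 21 and 34. The nearest site before the unit, 158 bp away, held 1 read in each pool. The last site inside, 7 bp from the end, held 2 and 8 reads, and the nearest site after the unit, 186 bp away, held 0 and 1. The WT depth had thus already come down to the level of the flanks within the last few sites of the unit. CpG density also changed there, from 102.3 listed sites per kb in the unit to 3.70 per kb over the 20 kb on each side.

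Fewer reads of Rn45s were methylated in the Tet1-null pool than in the WT pool. Summed over the 597 sites, 4472 of 21753 WT reads were methylated, a level of 20.6% (Wilson 95% interval 20.03 to 21.10%). In the Tet1-null pool 3116 of 39450 reads were methylated, or 7.90% (7.64 to 8.17%). The difference was -12.7 points (Newcombe 95% counting interval -13.3 to -12.1), and the WT level was 2.60 times the Tet1-null level. A read counts at each CpG it covers, and reads amplified by PCR with no molecular identifier can be copies of 1 molecule. These intervals therefore cover counting error only and are narrower than those of independent reads. At the 54 sites at least 100 bp apart, the levels were 19.7% and 7.24%, with a difference of -12.5 points (-14.4 to -10.6).

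Reads of both kinds, again summed over CpG sites, differed between the pools when scaled to pool size. Methylated reads of the unit made up 0.0147% of all WT reads outside chrM (0.0143 to 0.0152%) and 0.00668% of all Tet1-null reads (0.00645 to 0.00692%). Unmethylated reads made up 0.0569% (0.0561 to 0.0578%) and 0.0779% (0.0771 to 0.0787%). The Tet1-null pool thus held 0.453 times the methylated and 1.37 times the unmethylated reads of the WT pool on this scale.

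A lower level was not detectable in the flanks. Over the 20 kb on each side, 148 sites held 263 WT and 342 Tet1-null reads, at most 8 and 10 at a site. Of these WT reads 6.84% were methylated (4.37 to 10.6%), and of the Tet1-null reads 9.65% (6.95 to 13.2%). The difference of 2.81 points had a counting interval of -1.78 to 7.17 that included 0 and lay wholly above the -12.7 points of the unit. With 5 kb on each side it was -1.19 points (-10.04 to 6.45). On the side before the unit the levels were 7.35% and 7.93%, and on the side after it 6.30% and 11.2%. The WT level of the unit lay above the interval of the flanks. The Tet1-null level of the unit, 7.90%, lay within it.

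At the scale of 500 bp the lower level extended along the whole unit. All 12 bins of 500 bp were lower in the Tet1-null pool, by 8.32 to 18.1 points. Over the genome, 30.3% of 138968 such bins with at least 5 positions and 20 reads in both pools were lower in the Tet1-null pool. Bins of equal level did not count as lower, so the rest were not necessarily higher. The share was 82.6% of the 46 bins that reached 500 reads in each pool, and 76.5% of the 34 of these outside Rn45s, so a lower level is common among bins of this depth and the count adds nothing to the size of the difference.

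From the start of the unit, the bin at 1 to 500 bp had a WT level of 16.0% (14.6 to 17.4%) and a Tet1-null level of 6.18% (5.48 to 6.96%). At 501 to 1000 bp the levels were 15.5% (13.2 to 18.0%) and 6.62% (5.59 to 7.82%). These first 2 bins were among the 4 lowest of the WT pool. The bin at 1001 to 1500 bp had the highest WT level, 26.5% (24.8 to 28.3%), and stood at 8.81% (8.01 to 9.68%) in the Tet1-null pool. At 1501 to 2000 bp the WT level was 18.3% (16.7 to 20.1%), while the Tet1-null level was the highest of that pool, 9.99% (9.10 to 10.9%). This bin had the smallest ratio between the pools, 1.83.

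In the middle of the unit WT levels were high again. At 2001 to 2500 bp the WT level was 22.0% (20.3 to 23.9%) and the Tet1-null level 7.91% (6.997 to 8.92%). The bin at 2501 to 3000 bp had 21.8% (20.2 to 23.5%) and 9.60% (8.71 to 10.6%). At 3001 to 3500 bp the levels were 26.1% (24.3 to 28.1%) and 7.99% (7.18 to 8.89%), with the largest difference of any bin, -18.1 points (-20.2 to -16.1), and the largest ratio, 3.27.

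The following 1000 bp held the lowest levels of both pools. At 3501 to 4000 bp the WT level was 14.3% (12.1 to 16.9%), the lowest of that pool, and the Tet1-null level 6.02% (4.97 to 7.29%), with the smallest difference of the bins, -8.32 points (-11.1 to -5.73). At 4001 to 4500 bp the levels were 15.7% (13.6 to 18.0%) and 4.81% (3.94 to 5.86%), the lowest Tet1-null level. Toward the end both pools were higher again. They stood at 18.8% (17.2 to 20.5%) and 7.08% (6.31 to 7.94%) at 4501 to 5000 bp, and at 19.7% (17.9 to 21.6%) and 7.31% (6.53 to 8.17%) at 5001 to 5500 bp. The last bin, from 5501 to 5833 bp, reached 23.8% (21.5 to 26.2%) and 9.37% (8.37 to 10.5%). The lowest WT bin, at 14.3%, lay above the highest Tet1-null bin, at 9.99%. The interval was chosen for this difference, and how often other regions are so separated was not counted. In steps of 100 bp the ranges of the pools overlapped.

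**Figure D2:**
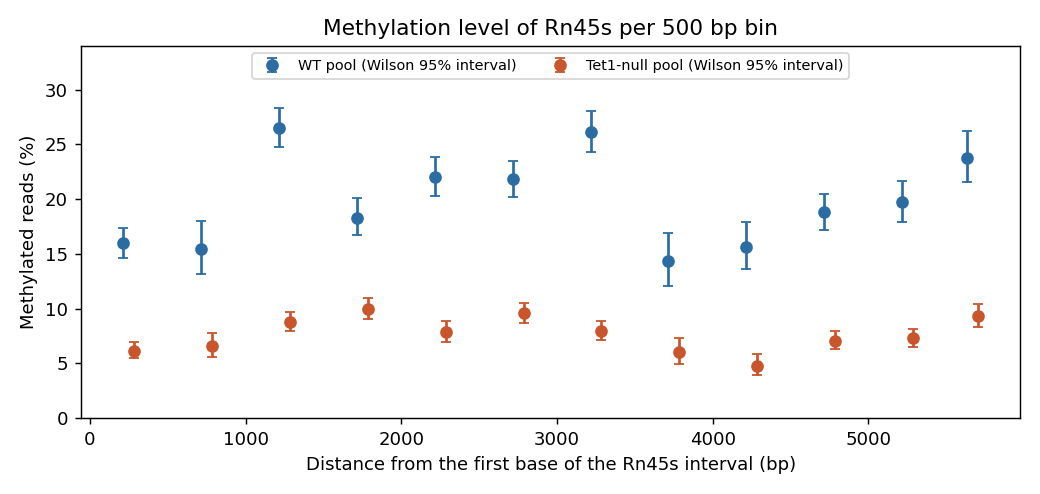
Methylation level (percent of reads) of the 12 bins of Rn45s against the distance from its first base in bp, with Wilson 95% intervals that cover counting error only. WT bins (blue) lie between 14.3 and 26.5%, Tet1-null bins (orange) between 4.81 and 9.99%, and both pools have their low point between 3501 and 4500 bp.

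Relief along the unit was partly shared. Across the 12 bins WT and Tet1-null levels correlated at 0.666 (Pearson) and 0.678 (Spearman). Across the 541 CpGs that reached 10 reads in each pool the correlation was 0.354 (Pearson) and 0.341 (Spearman), and across the 130 sites with at least 50 reads in both it was 0.584 and 0.616. Neighbouring sites share reads, so these values describe the unit and are not replicates. Levels varied among sites by more than binomial counting around a common level, with a chi-square per degree of freedom of 1.31 for WT and 1.58 for Tet1-null.

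At finer scale the highest WT levels lay in short stretches. In 45 of 59 steps of 100 bp both pools held 200 or more reads. The WT level of these 45 ran from 10.8% to 31.8% with a median of 20.2%, and the Tet1-null level from 2.93% to 13.9% with a median of 8.15%. The step at chr17:39981342-39981441 had the highest WT level, 31.8%, against 7.85% in the Tet1-null pool, the largest difference of the steps at -23.9 points (-29.7 to -18.5). The step at chr17:39983042-39983141 followed with 30.5% and 7.49%. The pools came closest at chr17:39983542-39983641, with 10.8% and 8.51%, a difference of -2.24 points whose interval of -7.17 to 2.03 included 0. The highest Tet1-null level, 13.9%, lay at chr17:39981542-39981641, where the WT level was 21.2%. Thus 6 Tet1-null steps were above the lowest WT step, and the ranges of the pools overlapped at this scale.

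Single sites were described at 10 or more reads in both pools, which 541 of the 597 reached. WT levels of these sites ran from 0% to 47.8% with a median of 20.8%, and Tet1-null levels from 0% to 21.7% with a median of 7.37%. No site stood at 50% or more in either pool, and 304 WT sites against 2 Tet1-null sites stood at 20% or more. The share of all sites of that depth at these levels was not counted, so these counts only describe the unit. Of the 541 sites, 469 or 86.7% had a Tet1-null level at least 5 points below the WT level. Among all 7751 sites of that depth outside chrM the share was 29.9%, and among the 7210 outside Rn45s it was 25.6%. The interval was chosen for its lower level, so its count restates that choice. The shares also compare sites of unlike WT level, 20.6% at the 541 sites and 10.2% at the 7210. A single Rn45s site was higher by 5 points or more, against 19.7% of all sites of that depth, and the other 71 differed by less than 5 points. That site, named after its value was seen, was position 39984255, with 3 of 19 WT reads and 5 of 23 Tet1-null reads methylated. It was also 1 of the 2 Tet1-null sites at 20% or more, and the other was position 39981622, with 9 of 42 WT reads and 19 of 92 Tet1-null reads methylated. The 56 sites below 10 reads in at least one pool had levels of 17.5% and 9.43%.

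**Figure D3:**
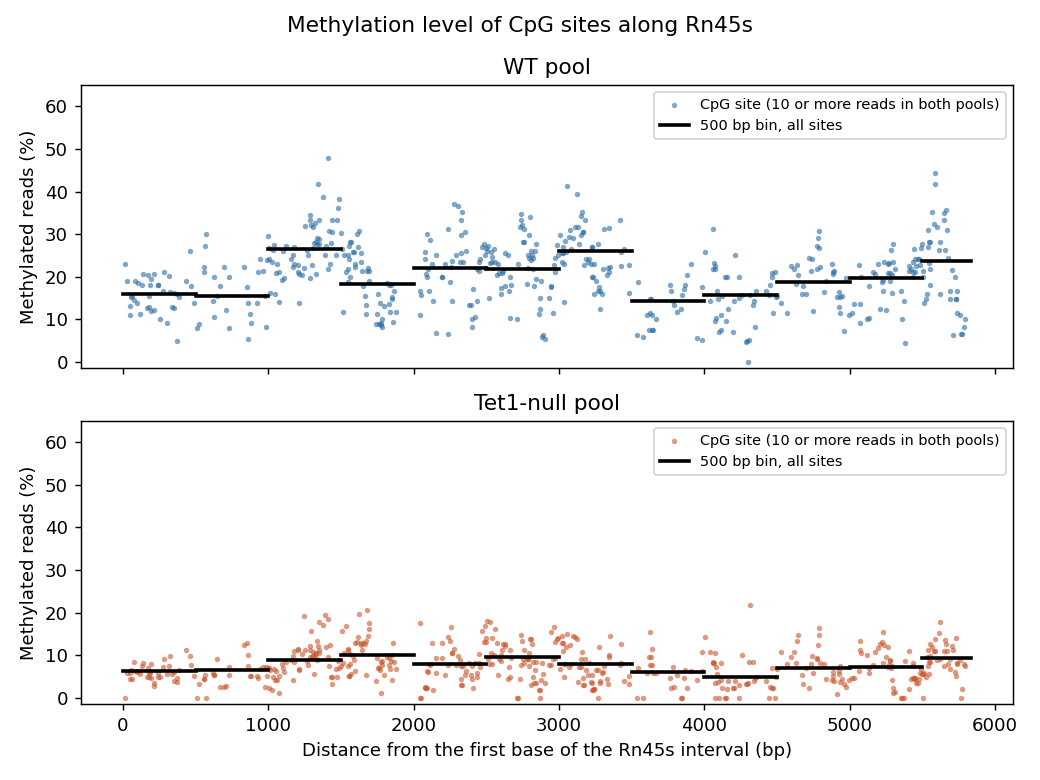
Methylation level (percent of reads) of the 541 CpGs that reached 10 reads in each pool against the distance from the first base of Rn45s in bp, WT pool above and Tet1-null pool below, with black bars for the 500 bp bins over all sites. WT sites spread between 0 and 47.8% and Tet1-null sites between 0 and 21.7%.

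Single positions were named among the 130 CpGs that reached 50 reads in each pool, of which 35 lay in the first bin and 26 in the bin from 4501 bp. The highest WT level among them was at position 39982999, 3058 bp into the unit, where 24 of 58 WT reads (41.4%) and 15 of 100 Tet1-null reads (15.0%) were methylated. The next highest, at 39982275, held 18 of 51 WT reads (35.3%, Wilson 95% interval 23.6 to 49.0%) and 2 of 69 Tet1-null reads (2.90%, 0.799 to 9.97%). It had the largest difference of the 130 sites, -32.4 points (-46.3 to -18.8). A group of sites in the bin from 1001 bp stood on the lists of both the highest WT levels and the largest differences, or on 1 of them. Position 39981228 stood at 34.5% and 11.2%, 39981265 at 32.7% and 10.3%, and 39981255 at 27.9% and 5.68%. The remaining site among the 5 highest WT levels was 39981225, at 33.3% and 12.2%. These 4 lie within 41 bp and can share reads, so they are not separate measurements.

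Among the same 130 sites, the 3 highest Tet1-null levels lay next to the border of the fifth and the sixth bin. At 39982444, 16 of 89 Tet1-null reads (18.0%) and 17 of 65 WT reads (26.2%) were methylated. Position 39982468 had a Tet1-null level of 17.8% and a WT level of 23.2%, and 39982429 had 16.9% and 16 of 64 WT reads. The counting intervals of the difference included 0 at all 3 of these sites.

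A few sites were low in both pools. The lowest WT level of the 130 was at 39980311, with 3 of 61 WT reads (4.92%) and 4 of 105 Tet1-null reads (3.81%). Position 39983889 had 3 of 54 (5.56%) and 4 of 94 (4.26%), and 39984901 had 6 of 82 (7.32%) and 5 of 151 (3.31%). The smallest differences were found at the first 2 of these and at 3 other sites. At 39985148 the levels were 12.5% and 12.7%, the only one of the 130 with a higher Tet1-null level, by 0.227 points (-11.97 to 10.0). At 39982341 they were 8.33% and 7.45%, and at 39985169 they were 16.7% and 15.5%.

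**Figure D4:**
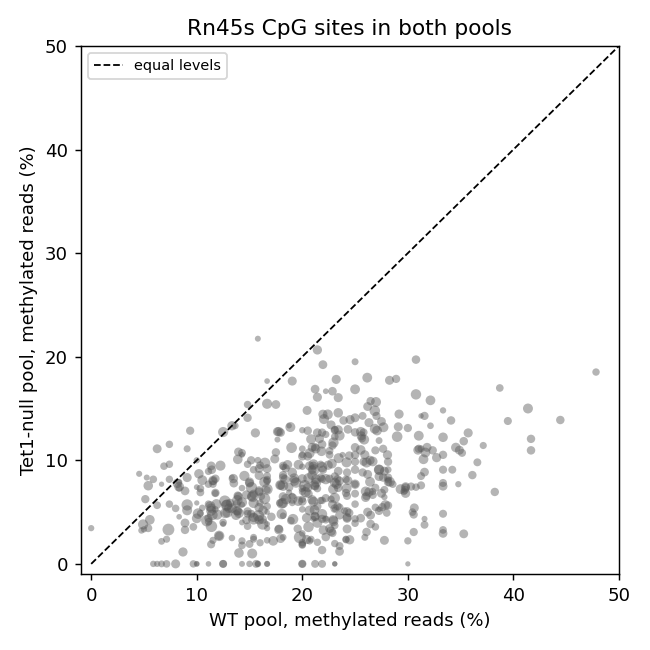
Tet1-null level against WT level (percent of reads) at the 541 Rn45s CpGs that reached 10 reads in each pool; larger points have more reads, and the dashed line marks equal levels. Most points lie below the line, and levels of the pools correlate at 0.354 (Pearson).

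Levels were higher where CpGs stood closer together. Sites with 0 to 7 other listed CpGs within 50 bp, 130 in number, had a WT level of 17.0% (16.0 to 18.1%) and a Tet1-null level of 6.59% (6.09 to 7.12%). The 224 sites with 8 to 11 had 19.1% and 7.72%. At the 243 sites with 12 to 19 the levels were 24.0% (23.1 to 24.9%) and 8.81% (8.38 to 9.27%). The order was the same in both pools, and the ratio of the pools was 2.58, 2.47 and 2.73. Across the 541 sites, level and local CpG number correlated at 0.407 for WT and 0.209 for Tet1-null (Spearman).

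Depth within the unit had a weaker relation to level. Sites with under 30 reads over both pools stood at 16.7% and 8.40%, those with 30 to under 90 at 18.4% and 6.42%, those with 90 to under 150 at 22.3% and 8.39%, and the 107 deepest at 19.2% and 7.87%. The WT level was the higher one in each class, with differences of -8.32, -12.0, -13.9 and -11.3 points. Level and reads at a site correlated at 0.107 for WT and 0.164 for Tet1-null (Spearman, 541 sites).

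Similarity between sites faded with distance. Pairs of sites within 10 bp, 517 in number, had levels that correlated at 0.624 for WT and 0.469 for Tet1-null (Pearson). At 51 to 100 bp the correlation was 0.241 and 0.145, and at 500 to 1000 bp it was -0.021 and 0.0065. Sites so close can be covered by the same read.

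Rn45s was set beside the other places of excess reads, chosen by reads per 1 kb window alone. Reads were summed over the CpGs of a window, so a window with more CpGs ranks higher at the same depth per site. Clusters of adjoining 1 kb windows with over 20 times the median reads in both pools numbered 26 with Rn45s, which was the second deepest in the WT pool and the deepest in the Tet1-null pool. Its 6 windows were on average at 133.3 and 181.4 times the median. Each of the 26 clusters stood at a higher multiple of the median in the Tet1-null pool than in the WT pool. The cluster chr2:98502001-98508000, for example, stood at 139.3 and 178.1 times. The 25 other clusters together had a WT level of 13.0% and a Tet1-null level of 11.1%, a difference of -1.87 points (-2.21 to -1.54). Of these 25, 7 had a Tet1-null level at least 5 points lower, 1 had one at least 5 points higher (chr17:35643001-35644000, 13.0% and 19.0%, named after its values were seen) and 17 lay between. The cluster nearest in WT reads per window, chr2:98502001-98508000, stood at 9.61% and 8.56%. It held 22565 WT reads at 82 CpGs, against 21593 at 592 CpGs in the windows of Rn45s, so its depth per site was far higher.

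A difference of this size in points occurred at 2 other deep places. The window chr16:11144001-11145000 stood at 25.1% for WT and 9.72% for Tet1-null, a difference of -15.4 points (-18.7 to -12.3). The window chr11:3050001-3051000 stood at 24.4% and 11.7%, a difference of -12.8 points (-16.8 to -8.91). The next in size after Rn45s, chr16:57391001-57392000, stood at 17.3% and 6.92%, a smaller difference of -10.3 points (-12.6 to -8.18). Rn45s thus ranked 3 of 26 by size of the fall in points. The difference in fall from these windows was not tested, since the interval was chosen for it. The ratio of the WT to the Tet1-null level, 2.60 in Rn45s, was 2.99 at chr9:123371001-123372000. It was 2.59 at chr16:11144001-11145000 and 2.50 at chr16:57391001-57392000. Whether any of these windows holds ribosomal sequence was not analysed here.

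**Figure D5:**
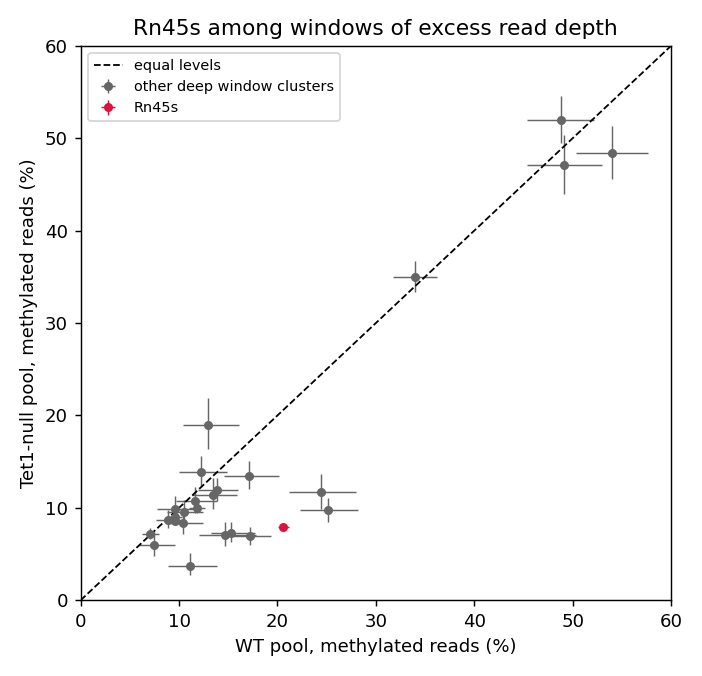
Tet1-null level against WT level (percent of reads) of the 26 deep clusters, with Wilson 95% intervals as bars and a dashed line at equal levels; Rn45s is red. Rn45s lies below the line at 20.6 and 7.92%, with a small group of other clusters beside it, while most of the rest lie near the line.

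The level of unconverted cytosines within Rn45s itself was not measured, since non-CpG cytosines were not used here. The chrM difference was -0.371 points, against -12.7 points in Rn45s. With the chrM level of each pool subtracted, the Rn45s difference was -12.3 points. Whether the chrM level stands for that of unconverted cytosines in Rn45s was not tested.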

How the data were processed

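DNA was tagged by Tn5 transposase, converted with bisulfite, amplified and sequenced, per the labels' protocols. The authors deposited 1 table for each genotype, with its libraries pooled, that holds a methylation fraction and a count of reads for every CpG. The submitters' processing notes name mm9 and bedtools. The aligner, the placement of reads that match several copies and the treatment of duplicates are not given in the sources used. A deposited read filter discards reads whose unconverted cytosines outside CpG exceed 1.2% of the bases. Bisulfite reads 5-methylcytosine and 5-hydroxymethylcytosine alike.

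Methylated reads were the fraction times the count, whole at 100% of sites within 0.0005 per read. Positions are the BED start plus 1. Levels have Wilson intervals, and differences, Tet1-null minus WT, have Newcombe intervals (Python 3.11.15, numpy 2.4.6, pandas 2.3.3, scipy 1.17.1, matplotlib 3.10.9). No test was run: each genotype is 1 pool, and the interval was chosen for its difference. Counts of sites lower or higher by 5 points and of 500 bp bins lower stand beside the same share over the genome. Counts at other settings and counts past a level have no such share and only describe the unit. Named sites had 50 or more reads in both pools and were the 5 highest and 3 lowest WT levels, the 3 highest Tet1-null levels, and the 5 largest and 5 smallest falls or rises. Steps of 100 bp, spaced sites, classes of depth and density, and deep clusters were chosen after seeing the data. Members, settings and lists were chosen with earlier results of these data known. The calculations were tested on simulated data.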

Additional observations from a re-analysis of the deposited data

How the results depend on the processing

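No paired analysis was possible because the tables pool each genotype's libraries, and no library could be left out. Of the alternatives tried, 22 gave a value inside the reported 95% interval, or a count within a factor of 1.5. The other 13 did not, or were depth settings on another scale, which were placed there without this rule. The difference over the whole unit stayed negative in all 8 alternatives to it. Among these, the sites listed in both pools were all sites of the unit, so that value could not change. The difference of the flanks, whose interval included 0, changed sign with 5 kb on each side. The WT level became 19.8% at sites with 50 or more reads, 19.7% at sites 100 bp apart (added after seeing the data) and 18.9% with the chrM level subtracted. The Tet1-null level became 7.24% at sites 100 bp apart and 6.61% with chrM subtracted. The difference became -12.0 points at sites with 50 or more reads. All 24 bins of 250 bp and all 6 of 1000 bp were lower, counts that change only with the bin size. Of 130 sites with 50 or more reads, 121 were lower by 5 points or more. The share over the genome was not counted at these settings, so these counts only describe the unit. Depth relative to the genome was 138.1 and 187.9 times on the scale of the median 1 kb window, which also rises with the number of CpGs. The unit's share of pool reads summed over CpG sites, added later, was 0.0717% and 0.0846% and rises with the number of CpGs too. On each of these scales the Tet1-null pool was the deeper one. Depth limits the flanks most, with 263 and 342 reads against 21753 and 39450 in the unit.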

Other observations

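Rn45s weighs on totals to which it contributes few sites. With the interval, chromosome 17 stood at 3.63% for WT and 4.19% for Tet1-null, a rise of 0.560 points. Without it the levels were 3.33% and 4.11%, a rise of 0.786 points (counting interval 0.743 to 0.829). The interval made up 597 of the 750027 sites listed on that chromosome and 4472 of its 44727 methylated WT reads.

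Of CpGs with at least 10 reads in each pool outside chrM, Rn45s made up 541 of 7751, or 6.98%, and 20.2% of the methylated WT reads against 9.78% of the methylated Tet1-null reads. Over all these sites 11.3% of WT and 9.08% of Tet1-null reads were methylated. Without Rn45s these were 10.2% and 9.24%, so the difference went from -2.24 to -0.925 points (counting interval -1.10 to -0.750).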
